A study of Triticum aestivum with 32 samples.

Results

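The 100 gene models described here had the most even levels in flag leaves of bread wheat, cultivar Stettler, across control plants and 7 abiotic stress treatments. They were chosen from the measured values. Transcript levels in TPM, a unit corrected for transcript length whose sum is 1000000 in each library, were summed to genes, low confidence gene models (identifiers ending in LC) were set aside, and gene models with a mean of 20 to 200 TPM over 32 libraries were ranked by their coefficient of variation (CV, the standard deviation over the mean) across those libraries. The 100 with the lowest CV were taken. Of 269428 gene models, 107892 had no LC suffix and 6196 of these lay between 20 and 200 TPM, so the 100 were drawn from 6196. Below, "stable gene models" means these 100, and "gene models of similar level" means the 6196.

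Each of the 8 groups had 4 libraries. Plants were treated from Feekes stage 8, with 8 pots for each treatment and 64 in all. Control plants had a day temperature of 24 °C, a night temperature of 18 °C and water at 100% field capacity. Drought plants were held at 40% field capacity. Heat plants were warmed to 30 °C for part of the day, in a second greenhouse that housed only the heated treatments, so heat and greenhouse cannot be told apart. Salt plants were watered with NaCl raised from 20 to 40 and then 80 mM. The combined treatments joined salt with heat, salt with drought, heat with drought, or all of these stresses. The labels do not say whether the 4 libraries of a group came from separate pots, so p-values measure the spread between libraries, which may be technical. The deposited table pairs no identifier with a gene name, so the leaf could not be checked by its markers and no function is given to any gene model below.

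Reference genes are genes whose RNA level is taken as a fixed yardstick when another gene is measured, for example by quantitative PCR. A useful one stays level across the conditions compared and sits well above the limit of detection. Bread wheat carries the A, B and D subgenomes, so that many genes are present as closely related copies on the corresponding chromosomes of a homoeologous group. TPM are shares of a library: a gene model that is even in TPM kept its share of the measured RNA, which is not the same as a constant number of molecules per cell. In bulk leaf tissue, fewer cells of a type and less RNA per cell cannot be told apart.

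The CV of the stable gene models ran from 7.48% to 11.2%, with a median of 10.2%. Over all 6196 gene models of similar level the median was 23.8%, the interquartile range was 18.7% to 32.5%, and 1822 exceeded 30%. These values chose the members and are description only. The list has no natural edge. The last gene models inside were TraesCS5B02G136500 at 11.15%, TraesCS5D02G229500 at 11.20% and TraesCS6B02G186200 at 11.21%. The first outside were TraesCS7D02G293100 at 11.23%, TraesCS3A02G443700 at 11.28% and TraesCS3B02G316500 at 11.30%.

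**Figure D1:**
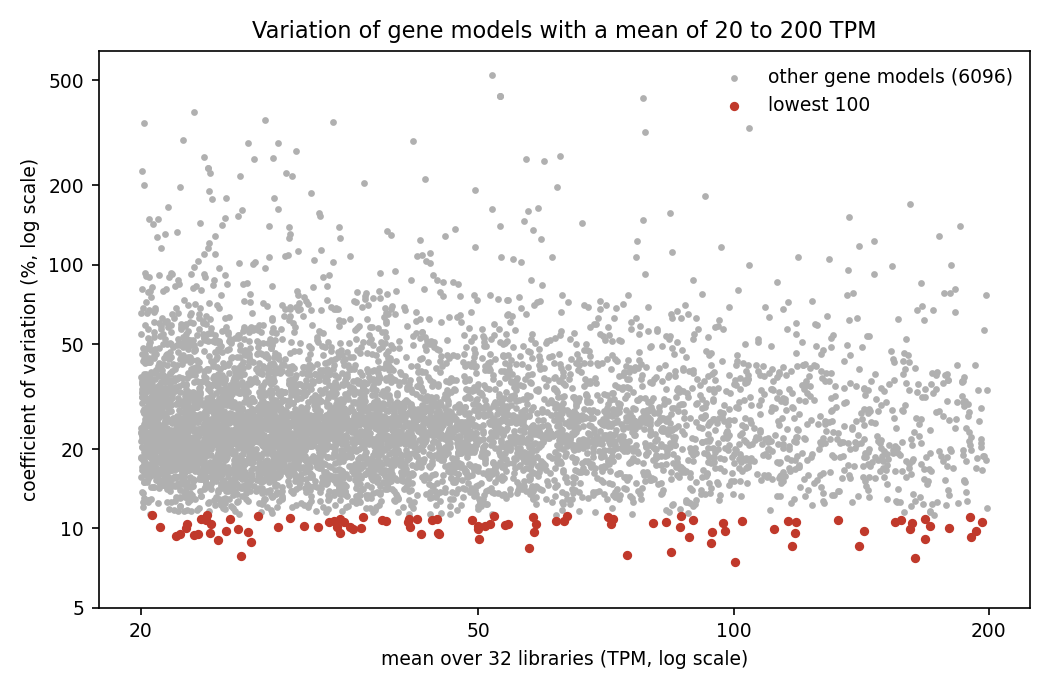
Coefficient of variation over 32 libraries (percent) against mean level (TPM, log axis) for the 6196 gene models with a mean of 20 to 200 TPM, with the 100 stable gene models marked. The marked points form the lower rim of the cloud, from 7.48% to 11.2%, and are spread over the whole range of levels.

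Every one of the 100 stayed within 2-fold between its highest and its lowest library, which held for 923 of the 6196. The ratio ran from 1.34 to 1.92 with a median of 1.55, and 31 stayed within 1.5-fold. Between the highest and the lowest of the 8 group means the ratio ran from 1.08 to 1.32, with a median of 1.21 against 1.62 for gene models of similar level. It was under 1.25 for 80 of the 100 and for 302 of the 6196, and over 1.3 for 5 of the 100. Since the rule kept gene models with a low spread, these ratios follow from the choice.

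TraesCS6B02G176600 had the lowest CV, at 100 ± 7.50 TPM (SD, n = 32) and 7.48%. The control libraries stood at 101.5, 102.1, 93.5 and 98.4 TPM, the drought libraries at 96.7, 103.4, 94.2 and 89.6 and the heat libraries at 89.5, 99.5, 92.0 and 103.2. The salt libraries stood at 115.1, 106.1, 91.8 and 116.7 TPM, and the heat plus drought libraries at 104.3, 102.9, 79.5 and 105.6. The salt plus drought libraries stood at 103.2, 112.3, 103.3 and 102.1 TPM, the salt plus heat libraries at 105.2, 97.0, 98.6 and 98.6, and those with all stresses at 96.8, 105.3, 101.8 and 99.2. Every group met or overlapped the control range, and the lowest and highest values were single libraries of heat plus drought and of salt. Its group means ran from 95.9 ± 5.79 TPM in drought to 107 ± 11.4 in salt (SD, n = 4 each), a ratio of 1.12.

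TraesCS7A02G294700, the next, was at 164 ± 12.6 TPM over the 32 libraries. Its control libraries stood at 152.9, 158.3, 177.3 and 154.6 TPM and its libraries with all stresses at 171.2, 171.2, 181.5 and 179.8, so that the ranges overlapped. The ratio between its extreme group means was 1.12, as for TraesCS6B02G176600 and TraesCS7A02G259700, the lowest among the first 10. The salt libraries stood at 171.9, 173.7, 128.9 and 152.8 TPM, and the lowest of them, replicate 3, was the lowest of all 32.

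TraesCS2D02G319600 was the lowest in level of the first 10, at 26.2 ± 2.07 TPM, with 22.6 TPM in its lowest library, a median of 26.4 and 30.2 in its highest. Its group means ran from 24.0 ± 1.97 TPM in heat plus drought to 28.2 ± 1.91 in salt plus heat (SD, n = 4 each), and the libraries of those groups overlapped, at 22.6 to 26.9 and 26.3 to 30.2 TPM. TraesCS6B02G301300 was at 74.9 ± 5.95 TPM, and the gap between its extreme groups was wider: heat stood at 68.9, 64.8, 71.2 and 64.9 TPM and salt plus drought at 84.2, 79.2, 86.2 and 77.8, with no overlap.

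TraesCS7D02G260700 (84.4 ± 6.86 TPM) and TraesCS7A02G259700 (117 ± 10.1 TPM) had the same extreme libraries. The lowest was salt replicate 3 for both, at 61.7 and 86.9 TPM. The highest was heat plus drought replicate 1 for both, where TraesCS7A02G259700 reached 135.4 TPM. TraesCS2D02G428800 was at 57.4 ± 4.82 TPM, from 47.9 in a heat library to 64.5 in a heat plus drought library, with a ratio of 1.14 between group means.

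TraesCS1A02G369800 (141 ± 12.1 TPM) and TraesCS6A02G148400 (94.0 ± 8.31 TPM) shared their extreme groups, salt and heat, at ratios of 1.21 and 1.22. For TraesCS1A02G369800 the salt libraries stood at 164.1, 154.0, 141.2 and 162.3 TPM and the heat libraries at 117.3, 138.5, 123.9 and 133.1. For TraesCS6A02G148400 the salt libraries stood at 107.4, 106.3, 93.3 and 108.9 TPM and the heat libraries at 82.2, 85.9, 82.5 and 89.6. Neither pair of groups overlapped, but both pairs were picked as the extremes of 8 groups. TraesCS2A02G341800, the last of these 10, was at 26.9 ± 2.39 TPM, and its group means ran from 24.9 ± 1.73 in control to 29.5 ± 3.04 with all stresses (SD, n = 4 each), where 1 library reached 33.3.

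**Figure D2:**
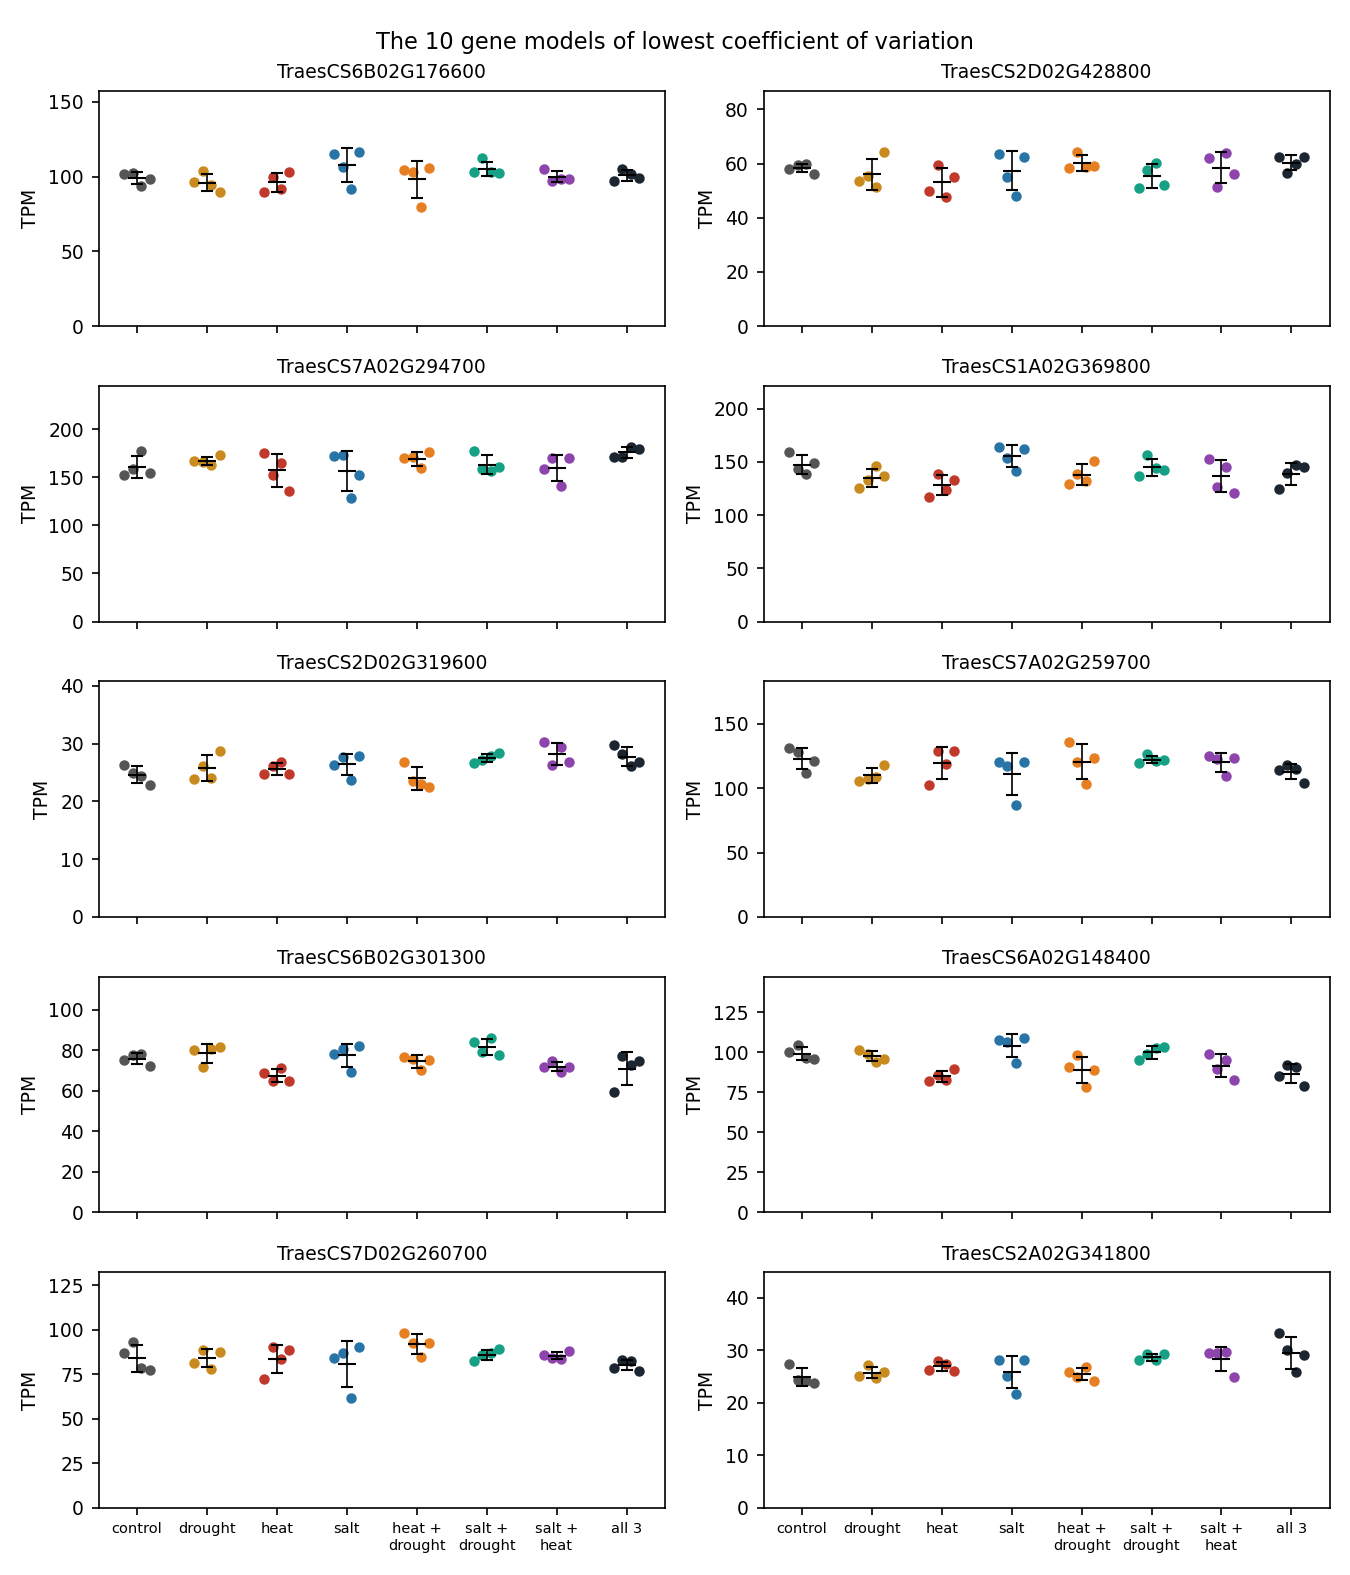
Level (TPM, axis from 0) in each of the 32 libraries, by group, for the 10 gene models of lowest CV; points are libraries, ticks are group means and bars are the SD of 4 libraries. Group means of each differ by ratios of 1.12 to 1.22, and single low libraries, such as salt replicate 3 at 61.7 TPM for TraesCS7D02G260700, stand out from their groups.

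Among all 100, the highest mean level belonged to TraesCS1D02G197400, at 196 ± 20.8 TPM, and the lowest to TraesCS6B02G186200, at 20.6 ± 2.31 TPM (SD, n = 32). The stable gene models were higher in level than all 6196 gene models of similar level, with a median of 50.5 against 35.2 TPM. Between 20 and 40 TPM lay 37 of the 100 and 58.6% of the 6196, and between 80 and 200 TPM lay 34 of the 100 and 13.9% of the 6196.

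The extremes of the group ratio show how differently a similar CV can be made up. TraesCS1B02G294600, with a CV of 10.8%, had the smallest ratio of group means, 1.08, from 24.6 ± 1.67 TPM in salt to 26.6 ± 3.09 in drought (SD, n = 4 each). Its control libraries nevertheless ran from 22.5 to 31.4 TPM and its heat libraries from 20.8 to 31.5, and group membership accounted for 5.68% of its sum of squares. TraesCS3D02G485400, with a CV of 10.9%, had the largest ratio, 1.32. Its drought libraries stood at 63.4, 71.9, 60.5 and 55.1 TPM and its libraries with all stresses at 86.7, 83.1, 79.5 and 82.3, with no overlap. Over the 100, group membership accounted for a median of 37.0% of the sum of squares, from 5.68% to 68.3%, against 42.1% for gene models of similar level and an expected 22.6% if the groups did not differ. Within a group the median CV was 7.88% against 17.4%.

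The spread within groups was not the same everywhere. For the stable gene models the median CV within a group was 5.66% in salt plus drought, 9.72% in heat and 10.99% in salt. The value for salt rested on replicate 3, without which it was 5.92%. Heat stayed between 8.47% and 9.87% whichever of its libraries was left out. Gene models of similar level had 27.3% in heat and 21.1% in control, which was 8.49% without control replicate 3.

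The stable gene models were not equally high in all groups. Drought and heat were each the lowest group for 29 of the 100. Salt plus drought was the highest group for 25 and heat plus drought for 20, while heat was the highest for 1. Relative to the mean over all libraries, the median of the 100 was 0.959 in drought, 0.962 in heat, 0.997 in salt, 0.998 with all stresses, 1.01 in control and in salt plus heat, 1.02 in heat plus drought and 1.04 in salt plus drought. Of gene models of similar level, 40.9% were lowest in drought and 20.5% in heat, and salt plus heat was most often the highest, for 26.7%. Of the 100, 13 were highest in salt plus heat. Salt plus drought was the highest group for 16.0% of gene models of similar level, heat plus drought for 6.91% and heat for 6.29%.

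**Figure D3:**
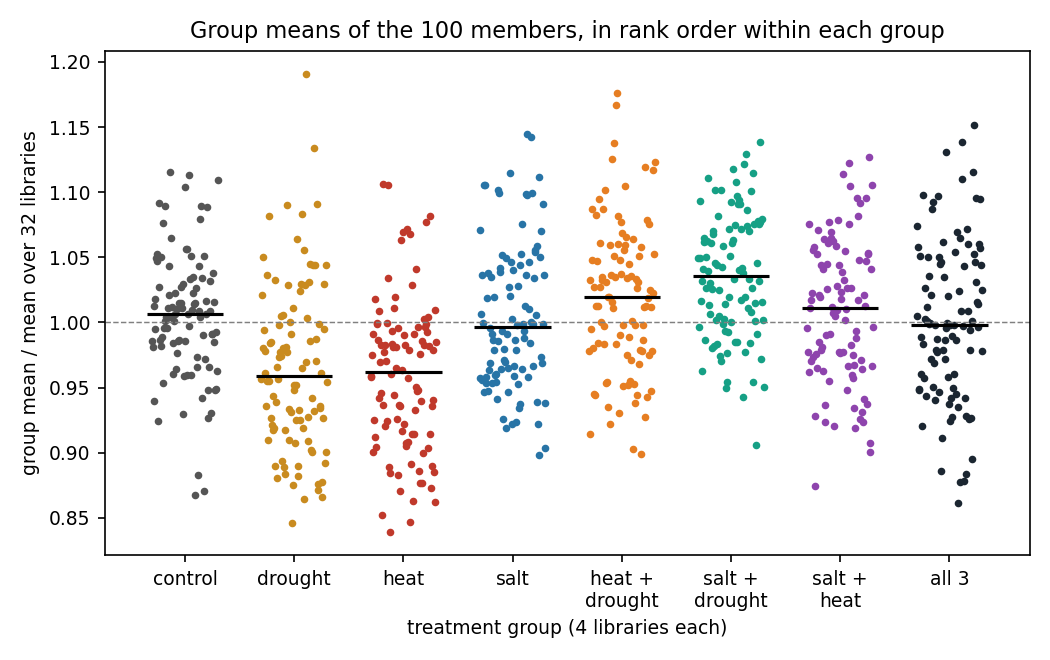
Group mean of each of the 100 stable gene models divided by its mean over 32 libraries, in rank order within each of the 8 groups, with the group's median as a line. Drought and heat have the lowest medians, 0.959 and 0.962, and salt plus drought the highest, 1.04.

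Over single libraries the geometric mean of the 100, relative to its mean over libraries, lay between 0.881 in salt replicate 3 and 1.07 in heat plus drought replicate 1. The next lowest was heat replicate 1 at 0.918. The median of all gene models of similar level moved more, from 0.682 in heat replicate 1 to 1.14 in salt plus drought replicate 2. Salt replicate 3 held the lowest value of 24 of the 100, and 11 of the 100 were above their own mean there. In that library low confidence gene models took 21.6% of the TPM total, against 7.81% to 9.90% in the other libraries. With those gene models taken out of the total of every library, salt replicate 3 stood at 1.02 and heat replicate 1 was the lowest library, at 0.904. Heat replicate 1 held the lowest value of 16 of the 100 and had the largest share of TPM in the 100 most abundant gene models, 36.1%, where the lowest share was 13.6%. Whether these shares take part in the levels of single gene models was not tested.

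**Figure D4:**
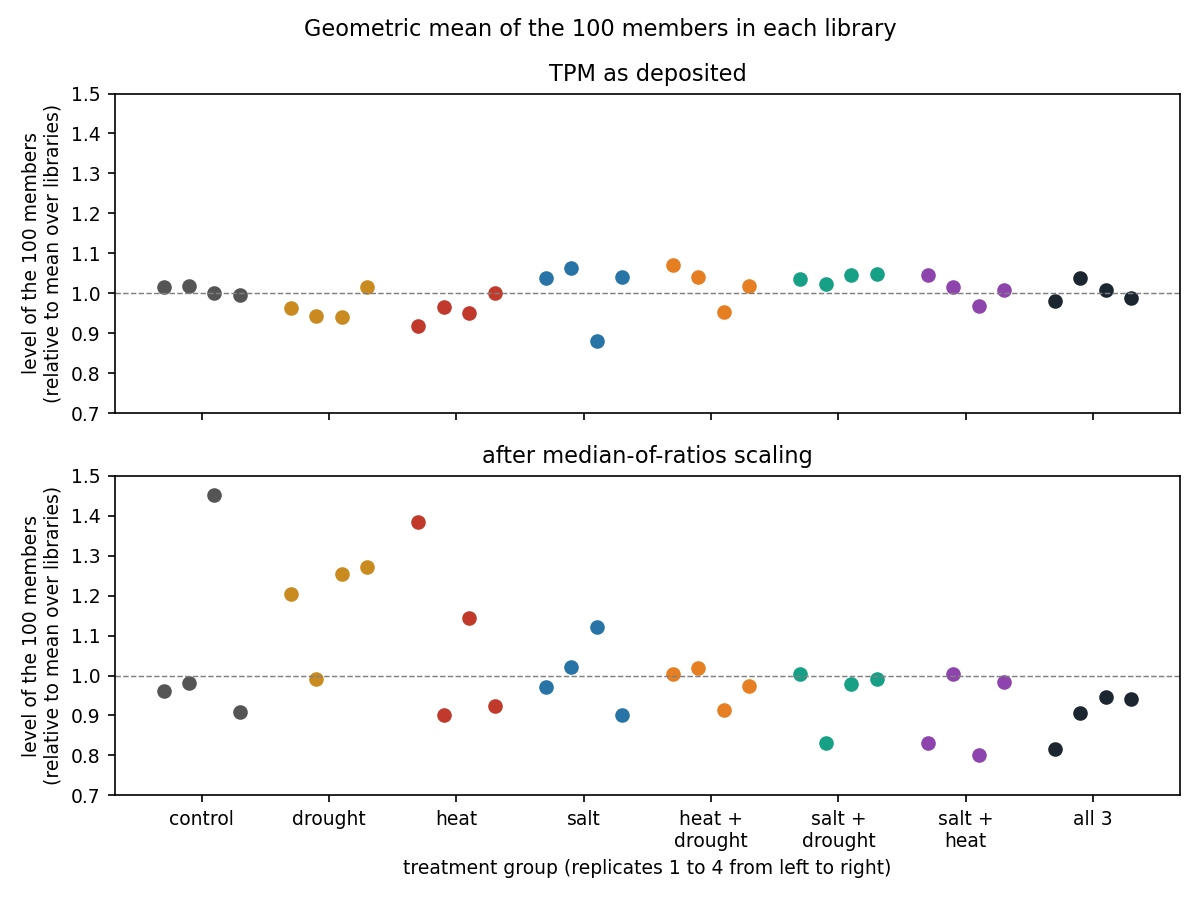
Geometric mean of the 100 stable gene models in each of the 32 libraries relative to its mean over libraries, in TPM as deposited and after median-of-ratios scaling. In TPM as deposited the libraries lie between 0.881 and 1.07; after median-of-ratios scaling they lie between 0.800 and 1.45.

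Single chromosomes were low in 4 libraries, in stretches where the running median over 25 neighbouring gene models lay under -0.5 on the log2 scale against the other libraries of the group (gene models of at least 5 TPM, relative to the library's median). The stretch spanned 166 gene models of chromosome 7A in drought replicate 4, 89 of 1B in heat replicate 3 and 124 of 6B in salt plus heat replicate 2, where 119 met that bound. The median log2 ratio was -0.90 in the stretch of 7A, -3.89 in that of 1B, much the lowest, and -0.76 in that of 6B. None of these stretches held a stable gene model, and they held 49, 22 and 41 gene models of similar level. The choice by low CV used the same libraries and works against gene models that drop in 1 of them, so nothing is read from this. In salt plus heat replicate 3, 825 of 883 gene models on chromosome 6D were lower than in the other libraries of the group, with a median of -0.89 on the log2 scale. That chromosome carried 251 gene models of similar level and 2 of the stable ones. TraesCS6D02G005000 was at 73.0 TPM in that library and at 110.1, 123.1 and 120.6 in the others of its group. TraesCS6D02G137700 was at 116.0 TPM there and at 214.6, 193.7 and 188.8 in the others. Without that library the list of 100 would hold 6 gene models of chromosome 6D, and without it, the other 3 libraries and salt replicate 3 it would hold 7 and share 77 with the list described.

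The choice was repeated 8 times with 1 group left out each time, so that the levels in the left out group had no part in it. The 100 gene models chosen on 28 libraries shared 74 (heat left out) to 90 (salt plus drought, or all stresses, left out) with the full list. Their mean in the left out group, divided by their mean in the 28, had a median of 1.01 for control, 0.939 for drought, 0.913 for heat, 0.987 for salt, 1.04 for heat plus drought, 1.05 for salt plus drought, 1.01 for salt plus heat and 0.997 for all stresses. Within 1.25-fold lay 88 of 100 for heat, where single ratios reached down to 0.696, and 97 to 100 of 100 for the other 7 groups. Of the 6050 to 6350 gene models with a mean of 20 to 200 TPM over the 28 libraries, 53.4% lay within 1.25-fold for drought, 65.8% for heat and 70.1% to 82.8% for the other 6. The median ratio of these gene models was 0.983 for control, 0.831 for drought, 0.899 for heat and 0.985 for salt. It was 0.984 for heat plus drought, 1.06 for salt plus drought, 1.07 for salt plus heat and 1.05 for all stresses. In heat and in salt the chosen lists had medians close to these. In heat plus drought their median lay further from 1. The counts and medians are over gene models of the same libraries and are given without a test.

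Averaging several gene models narrowed the spread up to a point. The geometric mean of the first 3 by rank had a CV of 5.003% over the 32 libraries, that of the first 5 had 4.76%, of the first 10 4.71%, of the first 30 4.37% and of all 100 4.45%, against 7.48% for the first alone. For all 100 it was 55.8 ± 2.48 TPM (SD, n = 32), from 49.1 in salt replicate 3 to 59.7 in heat plus drought replicate 1. The lowest library was salt replicate 3 for every set of 3 or more. The ranks were chosen on the same libraries, so these are descriptions.

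The ratio of 2 gene models within a library does not depend on the library's total. Over all 4950 pairs of the 100, the SD of the log2 ratio across 32 libraries had a median of 0.19, and it ran from 0.053 to 0.28. The tightest pair was TraesCS1B02G208500 and TraesCS1D02G197400. Their ratio was 0.916 ± 0.034 (SD, n = 32) and stayed between 0.859 and 0.999 in every library, while TraesCS1D02G197400 itself ran from 142.7 TPM in a library with all stresses to 230.3 in a control library. The next pair was TraesCS7D02G260700 and TraesCS7A02G259700, with a ratio of 0.721 ± 0.040 and a range of 0.640 to 0.826. Of the 20 tightest pairs, 14 joined different chromosomes of 1 homoeologous group, which is 70.0%, against 513 of all 4950 pairs, or 10.4%. Whether the paired gene models are copies of each other was not examined. The authors' estimation divides reads among similar transcripts, so levels of near-identical copies are uncertain one by one.

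**Figure D5:**
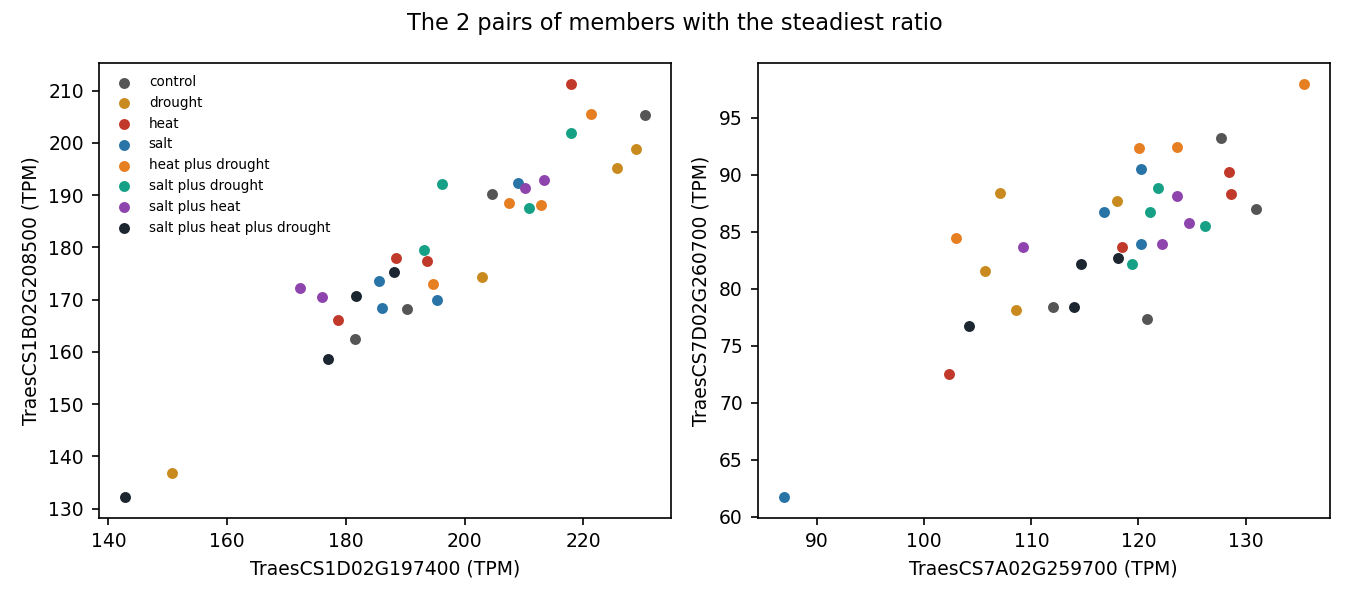
Level (TPM) of one gene model against the other in each of the 32 libraries for the 2 tightest pairs. The mean ratios were 0.916 for TraesCS1B02G208500 over TraesCS1D02G197400 and 0.721 for TraesCS7D02G260700 over TraesCS7A02G259700.

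Position and gene structure were not used in the choice. The A, B and D subgenomes carried 29, 39 and 32 of the 100, against 32.5%, 31.4% and 34.9% of gene models of similar level. Homoeologous group 3 carried 21 and group 7 carried 19, against 14.3% and 13.8%, and group 2 carried 10, against 16.1%. By the order of identifiers along a chromosome, 68 of the 100 lay in the inner 50% and 4 in the outer 10%, against 60.3% and 5.93% of the 6123 gene models of similar level that are placed on a chromosome. Within 20 gene models of each other lay 4 pairs of neighbouring members, and the closest were TraesCS3B02G541000 with TraesCS3B02G541300 and TraesCS5B02G002600 with TraesCS5B02G002900, each 3 apart. A single annotated transcript was listed for 66 of the 100, 2 for 25 and 3 for 9, against 71.4%, 19.7% and (3 or more) 8.94%. No test was made of these shares.

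The rule used the sum over a gene's transcripts and not its division among them. The share of the leading transcript could be tested for 12 of the 100, those whose leading transcript held at most 95% of the gene's TPM. By limma's moderated F test over the 8 groups with Benjamini-Hochberg adjustment, 0 of the 12 passed an adjusted p of 0.05, against 2.88% of all gene models tested; at an unadjusted p under 0.05 there were 6 of 12, against 17.0% of all. The gene models named next were chosen after their values were seen. TraesCS7B02G157800 was at 71.7 ± 7.43 TPM over 32 libraries, and its leading transcript took 80.9, 81.8, 84.3 and 84.0% in the drought libraries, 70.3, 69.1, 75.3 and 72.0% in control and 61.5, 63.8, 68.6 and 66.1% in salt plus heat. Drought did not overlap with either of these groups, but the adjusted p over the 8 groups was 0.0737. It was 0.0247 when only gene models of at least 20 TPM were tested and 0.0234 without heat replicate 2.

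TraesCS7D02G227400 (24.2 ± 2.52 TPM) had the widest range of group means, 28.1 percentage points. Its leading transcript took 87.9, 93.1, 100 and 60.5% in the drought libraries and 65.3, 44.9, 61.7 and 57.3% in salt plus heat. Drought replicate 4 fell among the salt plus heat values, and the adjusted p was 0.12, against 0.00116 without that library. TraesCS7A02G227000, at 22.6 ± 2.35 TPM, ranged over 17.5 points, with an adjusted p of 0.28, and its drought libraries stood at 87.4, 78.0, 80.5 and, again lowest in replicate 4, 57.6%. Neither gene model lies in the stretch of chromosome 7A that was low in drought replicate 4. Whether that stretch takes part in these shares was not tested. The gene sums of these 3 had CVs of 10.4% each. The direction in drought was not the same in all members tested. Against control, the log2 ratio of the leading to the other transcripts changed by -0.57 for TraesCS3A02G426800 (standard error 0.20). The change was -0.39 for TraesCS3D02G168200 (standard error 0.35) and -0.18 for TraesCS4D02G292300 (standard error 0.28). It was positive for each of the other members tested.

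The tests of expression itself rest on the values that chose the members, so their counts are given beside the background and nothing is read from them. By limma on log2(TPM + 1), 3 of the 100 differed among the 8 groups at an adjusted p of 0.05, against 25.8% of all 60684 gene models tested. The count ran from 1 to 6 when 1 library was left out. It was 17 under median-of-ratios scaling, against 24.8% of all, and 13 under quantile normalisation, against 24.4%. The 3 were TraesCS5B02G002600, TraesCS3B02G541000 and TraesCS5D02G309600. Of the 7 comparisons with control, at least 1 was past the threshold for 1 of the 100, against 18.9% of all. TraesCS3A02G028400 stood at 28.1, 30.8, 31.1 and 29.4 TPM in control and at 41.1, 37.1, 35.4 and 36.5 with all stresses. The groups did not overlap, and the log2 difference was 0.32 with a standard error of 0.10, in a comparison where 9.68% of all gene models were higher. The count of 1 fell to 0 without control replicate 1, 2 or 4 or without replicate 1, 2 or 4 of the group with all stresses. In each of the other 6 comparisons the limma count was 0, against 1.33% of all gene models in drought, 1.21% in heat, 1.46% in salt, 2.58% in heat plus drought, 1.79% in salt plus drought and 9.51% in salt plus heat. At an unadjusted p under 0.05 there were 2 of the 100 in salt plus drought, against 16.3% of all gene models, 3 in salt (13.2%), 5 in salt plus heat (26.1%), 6 in drought (16.9%), 6 in heat plus drought (14.2%) and 10 in heat (11.2%).

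Each stress was also averaged over its 4 comparisons, one for each combination of the other stresses. With salt 8 of the 100 were higher, against 29.0% of all gene models, and 0 were lower, against 3.95%. Under median-of-ratios scaling 0 of the 100 were higher, against 9.26%, and 31 lower, against 10.7%. Of the 8, TraesCS2D02G124700 was not past the threshold in 15 of 32 fits that left out 1 library, and TraesCS2D02G319600 in 2, those without salt plus heat replicate 1 or replicate 1 of the group with all stresses. The log2 difference with salt was 0.19 for TraesCS5B02G136500 and 0.18 for TraesCS5A02G456000, given as descriptions. The salt libraries of TraesCS5A02G456000 stood at 108.1, 104.2, 93.0 and 104.0 TPM and its heat libraries at 66.2, 86.6, 71.3 and 89.98. These were its highest and lowest groups, and salt against heat is not among the 4 averaged comparisons. For salt alone against control limma gave a log2 difference of 0.21, with a standard error of 0.11 and an adjusted p of 0.41. With heat 2 of the 100 were lower, against 2.55% of all, and 0 were higher, against 7.22%. The 2 were TraesCS6A02G148400 and TraesCS3B02G234200, each with a log2 difference of -0.18. With drought 0 of the 100 and 0.801% of all gene models passed the limma threshold, and 6 of the 100 had an unadjusted p under 0.05, against 12.2% of all. The median log2 change of the 100 was 0.0015 with heat, 0.02 with drought and 0.04 with salt, where the median over all gene models was 0.08, 0.02 and 0.17.

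Which gene models were most even differed with the scaling. Median-of-ratios scaling divides each library by the median ratio of its gene models to their average, and its factors ran from 0.670 in heat replicate 1 to 1.27 in salt plus heat replicate 1. On that scale the CV of the 100 had a median of 17.1%, from 10.8% to 27.96%, against 21.3% for the 6057 gene models with a mean of 20 to 200 TPM on that scale, and 0 of the 100 stayed in the list of the lowest 100. TraesCS6B02G176600 went from rank 1 to rank 1169, at a CV of 14.1%, and TraesCS7A02G294700 from rank 2 to rank 3043, at 21.0%. The gene models lowest on that scale had a median CV of 7.92% there and of 17.4% in TPM as deposited. The geometric mean of the 100 then ran from 0.800 in salt plus heat replicate 3 to 1.45 in control replicate 3.

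Quantile normalisation, which makes the distribution of values identical in all libraries, kept 17 of the 100. TraesCS6B02G176600 stayed near the top of that list, at rank 5 and a CV of 6.60%, while TraesCS2D02G319600 moved to rank 748. With the 100 most abundant gene models taken out of the totals 34 stayed, and with low confidence gene models taken out 84 stayed, where TraesCS7A02G294700, TraesCS7D02G260700 and TraesCS6B02G176600 had the lowest CVs, at 6.72%, 7.19% and 7.70%. The direction with salt changed with the scale: the median of the 100 was 0.04 in TPM as deposited, -0.08 after quantile normalisation and -0.18 after median-of-ratios scaling. When all gene models were divided by the geometric mean of the 100 instead, averaged salt gave 14177 higher and 2779 lower gene models, against 17569 and 2395 in TPM as deposited.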

How the data were processed

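RNA of 32 flag leaf libraries was measured as TPM per transcript in the deposited table. Per the submitters' processing notes, CASAVA, Trimmomatic, STAR and RSEM 1.3.3 were used. Per the labels' description of the series, the authors aligned filtered reads with STAR to the IWGSC 1.1 wheat genome and estimated transcript TPM with RSEM. Other versions are not given in the sources used here. TPM sum to 1000000 in each library, within 2.26, so the sequencing depth is unknown and no counting interval is given.

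Values of 298774 transcripts were summed to 269428 gene models. limma 3.58.1 in R 4.3.3 was fitted to log2(TPM + 1) of gene models that reached 1 TPM in 4 or more libraries, in 1 model of the 8 groups with a mean trend, and p-values were adjusted over all gene models tested. Fold changes on this scale understate changes of low gene models. The leading transcript, the one of highest mean, was tested as log2 of its TPM + 0.5 over that of the gene's other transcripts + 0.5, for gene models of at least 5 TPM whose leading transcript held at most 95%. The rest used Python 3.11.15 with numpy 2.4.6 and pandas 2.3.3. The models were tested on simulated data, with noise independent between libraries and added changes larger than any difference in level of the stable gene models. That test does not cover differences as small as theirs, or deviations that gene models of a library share.

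Gene models named are the 10 of lowest CV, the 3 on each side of the edge, the extremes of level and of group ratio, the 2 largest called changes of each averaged stress and the 2 tightest pairs; others are said to be chosen later or are the members of a small count. The members and lists were chosen with earlier results of these data known. Of the identifiers, 0 matched a RefSeq gene table of 155467 genes, so no names, coordinates or sequences are given. Alternatives were other pseudocounts, filters, scalings and rankings, blocks by replicate number, and leaving out each library.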

Additional observations from a re-analysis of the deposited data

Results flagged for a closer look

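In groups of 4 libraries, a library was singled out when its gap to the nearest other library, divided by the range of the group, exceeded Dixon's critical value at the 95% level. Of 88 groups tested, 10 had such a library, and chance gives about 1 in 20. The geometric mean of the 100 gene models was 0.881 in salt replicate 3, where the other salt libraries lay between 1.04 and 1.06. In the same library TraesCS7A02G259700 was at 86.9 TPM, against 116.8 to 120.3 in the others, and TraesCS6A02G148400 at 93.3, against 106.3 to 108.9.

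TraesCS6B02G176600 was at 79.5 TPM in heat plus drought replicate 3, against 102.9 to 105.6, and at 112.3 in salt plus drought replicate 2, against 102.1 to 103.3. TraesCS6B02G301300 was at 71.6 TPM in drought replicate 2, against 80.5 to 81.7. TraesCS2D02G428800 was at 64.5 TPM in heat plus drought replicate 2, against 58.3 to 59.2. TraesCS7A02G259700 was at 109.2 TPM in salt plus heat replicate 3, against 122.2 to 124.8. TraesCS2A02G341800 was at 27.5 TPM in control replicate 1, against 23.7 to 24.3, and at 24.96 in salt plus heat replicate 4, against 29.5 to 29.7. Of the 10, 3 fell in salt replicate 3.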

How the results depend on the processing

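Of the 100 gene models, the list kept 0 under median-of-ratios scaling, 17 under quantile normalisation, 34 without the 100 most abundant gene models, 46 when ranked by the median absolute deviation over the median, 37 by the CV of group means and 34 by the ratio of group means. It kept 99 with low confidence gene models included, 94 when ranked by the SD of log2 values, 78 with a range of 10 to 400 TPM, and, as alternatives chosen after seeing the data, 84 without low confidence gene models in the totals and 77 without salt replicate 3 and the 4 libraries with a low segment. Leaving out 1 library kept 88 (without salt replicate 3) to 98, and 79 stayed in every such list. The median CV was 17.1% under median-of-ratios scaling and 10.03% to 10.4% without 1 library. On that scaling the lists with 1 group left out were chosen anew, so their ratios are not those of the 100 described here. The ratios for salt and for salt plus heat are not given. The left out ratios were 1.04 for control, 1.001 for drought and 0.992 for heat. They were 0.964 for heat plus drought, 1.02 for salt plus drought and 0.933 for all stresses. The cause was not tested. The spread within a group without 1 library was also chosen after seeing the data.

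The count of members differing among the 8 groups, 3, became 5 with no filter (9.41% of all gene models), 17 under median-of-ratios scaling (24.8%), 13 under quantile normalisation (24.4%), 5 when scaled by the members' geometric mean (21.9%) and 13 without low confidence gene models (35.7%), against 25.8% of all as deposited. It ran from 1 (without drought replicate 3, heat plus drought replicate 4 or salt plus heat replicate 1) to 6 (without control replicate 3, heat replicate 4 or salt replicate 3), with 5 without drought replicate 2 or heat plus drought replicate 3. The count against control, 1, became 14 under median-of-ratios scaling (24.5% of all), 9 under quantile normalisation (23.7%), 6 without the 100 most abundant gene models (19.4%), 2 by the geometric mean (20.3%) and 0 in models of the 2 groups alone, where all gene models gave 7496 against 11499. It ran from 0 to 3 (without control replicate 3) when 1 library was left out. The count for the leading transcript, 0, became 1 for gene models of at least 20 TPM (11.6% of all) and ran from 0 to 1 without 1 library.

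The replicate block by the number in the source name gave 4, 1 and 0 for these 3 counts, and the block by the number in the title 0, 1 and 0, where all gene models gave 7898 against 15632 and, for the leading transcript, 38 against 108. Over 112 pairs of libraries with the same source number the correlation of their deviations ran from -0.29 to 0.29, with 27 over 0.1. The median was 0.0054, against -0.0015 for other pairs. Over 56 pairs by title number it ran from -0.47 to 0.47, with 14 over 0.1 and a median of -0.0062, against 0.00058. The numbers are not taken as pairs, though these values cannot exclude that some libraries deviated together. Without counts, depth sets a limit that cannot be stated.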
